A study of Mus musculus with 6 samples.

Results

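The sterol branch of cholesterol synthesis is the run of reactions that turns farnesyl diphosphate into squalene and squalene into cholesterol. Its 9 genes considered here, Fdft1, Sqle, Lss, Cyp51, Msmo1, Nsdhl, Hsd17b7, Sc5d and Dhcr7, were taken by name as rows of the count table, and all 9 were found among its 23505 gene rows. RNA sequencing gave the transcript levels of liver CD4+ T cells, sorted from wild type mice given concanavalin A. This lectin from jack beans, ConA for short, sets off T cells and so injures the liver. The ConA+SIM group (3 samples) was gavaged with simvastatin at 30 mg/kg, and the ConA group (3 samples) with PBS, the vehicle. Both groups received ConA, with gavage daily over 5 days and 1 h before it and once 24 h after it. The sorted cells carried CD3 and CD4 and lacked NK1.1 and CD8. Age, sex and strain of the mice were not given in the sources used here, and both groups of the comparison carry ConA.

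Cells make the sterol nucleus in the endoplasmic reticulum: squalene is built and oxidised, closed into lanosterol, and then stripped of methyl groups and rearranged into cholesterol. The genes of the branch are classical targets of SREBP2, a membrane-bound transcription factor that SCAP escorts out of the endoplasmic reticulum when sterols are scarce and that INSIG proteins hold back when they are plentiful. Simvastatin, a statin, lowers sterol synthesis upstream of this branch, and activated T cells are known to raise sterol synthesis as they grow. The question put to the data was therefore how the transcripts of each step stood in liver CD4+ T cells of ConA+SIM mice against ConA mice.

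SREBP2 is known to bind sterol regulatory elements near the starts of such genes, often beside a CCAAT box, bound by NF-Y, and a GC box, bound by Sp1. RefSeq promoter windows (GRCm38.p6, 250 bases before to 50 after a start) matched 7 of the 9 genes in 9 windows, 3 of them for Dhcr7; Fdft1 and Sqle had none in the table. Shown are the windows of Cyp51, which had the smallest p of the branch, Nsdhl, which had the highest log2 fold change, and Lss, which had the lowest. Capitals mark matches, on either strand, to TCACNNCA, a loose core of the sterol regulatory element, to CCAAT and to GGGCGG. The E-box CACGTG was searched too and has no match in these 3 windows. The Cyp51 window is chr5:4104648-4104947 (minus strand), the Nsdhl window chrX:72918271-72918570 (plus strand) and the Lss window chr10:76531355-76531654 (plus strand), each printed 5′ to 3′ along the gene.
Cyp51: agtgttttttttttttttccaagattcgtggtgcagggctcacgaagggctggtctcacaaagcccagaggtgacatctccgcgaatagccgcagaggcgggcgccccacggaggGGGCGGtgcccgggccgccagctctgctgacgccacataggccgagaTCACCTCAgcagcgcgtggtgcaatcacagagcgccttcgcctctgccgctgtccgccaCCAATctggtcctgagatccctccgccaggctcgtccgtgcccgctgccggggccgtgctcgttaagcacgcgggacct
Nsdhl: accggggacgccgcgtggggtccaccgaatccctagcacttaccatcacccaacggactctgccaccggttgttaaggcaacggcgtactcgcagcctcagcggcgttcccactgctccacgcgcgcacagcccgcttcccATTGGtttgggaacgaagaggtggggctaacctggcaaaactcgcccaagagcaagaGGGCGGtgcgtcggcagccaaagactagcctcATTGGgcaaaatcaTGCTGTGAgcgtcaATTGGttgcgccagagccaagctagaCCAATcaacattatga
Lss: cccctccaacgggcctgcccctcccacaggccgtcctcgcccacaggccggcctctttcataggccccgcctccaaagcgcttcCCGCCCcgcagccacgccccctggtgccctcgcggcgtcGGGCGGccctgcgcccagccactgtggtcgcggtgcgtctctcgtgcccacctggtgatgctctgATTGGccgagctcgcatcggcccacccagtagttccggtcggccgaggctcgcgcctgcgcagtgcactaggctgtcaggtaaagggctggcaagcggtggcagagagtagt
The core match of Cyp51 reads TCACCTCA and begins 88 bases before the start; Hsd17b7 holds the same letters, 117 bases before its start. In Nsdhl the match lies on the other strand and runs across the start, with its leftmost base 6 bases before it, and Lss has none. A core match was found in 7 of the 9 windows (Cyp51, Nsdhl, Hsd17b7, Sc5d, Msmo1 and 2 of the 3 of Dhcr7), against 13.8% of 32851 windows of all genes; the letters were chosen with these windows in view. A CCAAT box stood in 7 of the 9 windows, against 37.4% of all, a GC box in 8, against 35.7%, and an E-box in 3, against 7.15%. In Msmo1 a core match shared 1 base with a CCAAT box. These matches describe letters only. They do not show that a factor binds.

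Total counts ran from 17549429 to 20441213 in ConA+SIM libraries and from 18360352 to 25031862 in ConA libraries. Of the table's genes, 10509 had enough counts to be tested, all 9 sterol branch genes among them. The summed level of 8 T cell markers was 3386 to 3547 CPM (a gene's counts scaled to its library's total, by TMM factors) in ConA+SIM and 2194 to 3452 CPM in ConA libraries, with Cd4 alone at 441 to 562 CPM in ConA+SIM and 485 to 766 CPM in ConA libraries, whereas the CD8 genes Cd8a and Cd8b1 together reached 54.1 CPM at most. Markers of other cells were found as well. The 11 macrophage markers summed to 245 to 1214 CPM in ConA+SIM and 949 to 2200 CPM in ConA libraries. For 8 sinusoidal endothelium markers the sums were 297 to 593 CPM in ConA+SIM and 236 to 1865 CPM in ConA. For 5 B cell markers they were 314 to 677 CPM in ConA+SIM and 99.1 to 959.5 CPM in ConA. Transcripts came and went between samples of a group: 27.8% of tested genes had 0 counts in a library and at least 100 in another of the same group. ConA+SIM replicate 2 stood apart, where 18.4% of tested genes had no count, whereas this share was 2.76% to 9.98% elsewhere. In such bulk samples, fewer cells that express a gene and less RNA per cell cannot be told apart.

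No gene of the sterol branch passed the test between ConA+SIM and ConA. By the edgeR quasi-likelihood test with Benjamini-Hochberg adjustment over all genes (threshold 0.05), 0 of 9 rose and 0 fell, against 0.542% of all tested genes that rose and 0% that fell. At an unadjusted p under 0.05 the branch also had 0 of 9, against 8.85% of all tested genes, and DESeq2 and limma-voom each called 0 of 9, against 5.21% and 1.22%. The log2 fold changes of ConA+SIM over ConA were above 0 in 4 genes and below 0 in 5, from -1.99 for Lss to 0.94 for Nsdhl. Their median was -0.004, beside -0.04 over all tested genes. Values above and below 0 thus stood side by side along the branch, and the SEs ran from 0.28 for Cyp51 to 2.32 for Lss.

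Fdft1, squalene synthase (chromosome 14, 63145150 to 63181687, GRCm38), commits farnesyl diphosphate to sterols. It stood at 91.1, 80.2 and 74.3 CPM in ConA+SIM replicates 1 to 3, against 52.5, 82.7 and 85.8 CPM in ConA replicates 1 to 3. The groups overlapped, with ConA replicate 1 below the other 5 libraries. The log2 fold change was 0.15 ± 0.36 (SE, n = 3 per group; edgeR adjusted p = 0.999), with a 95% interval of 0.631-fold to 1.96-fold. Without ConA replicate 1 it was -0.05. Fdft1 shares 774 bases with Ctsb on the opposite strand, and the counting is not stated to use strand, so reads there cannot be assigned. Ctsb, the gene of the protease cathepsin B, had a log2 fold change of -0.505 ± 0.21 and did not pass (edgeR adjusted p = 0.535).

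Sqle, squalene epoxidase (chromosome 15, 59315092 to 59331193), adds oxygen to squalene and is regarded as a rate-limiting step of the branch. Its level was 22.5, 13.4 and 18.9 CPM in ConA+SIM replicates 1 to 3, against 16.8, 55.1 and 58.2 CPM in ConA replicates 1 to 3. All 3 ConA+SIM libraries were low, and so was ConA replicate 1, so the groups overlapped. The log2 fold change was -1.25 ± 0.75 (edgeR adjusted p = 0.793; 95% interval 0.131-fold to 1.36-fold). Without ConA replicate 1 it was -1.65 (unadjusted p = 0.0378, adjusted p = 0.667, edgeR), and without ConA replicate 3 it was -0.95. Its direction held in all 16 alternatives that were run.

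Lss, lanosterol synthase (chromosome 10, 76531565 to 76557139), closes oxidosqualene into the ring system of lanosterol. It had 328, 0 and 126 counts in ConA+SIM replicates 1 to 3, against 1187, 902 and 0 counts in ConA replicates 1 to 3. In CPM these were 17.5, 0 and 6.73 in ConA+SIM and 51.3, 45.4 and 0 in ConA libraries. Each group thus held 1 library with no Lss count, beside libraries with more than 100. A count of 0 allows up to 3 counts at 95% confidence, 0.175 CPM in ConA+SIM replicate 2 and 0.118 CPM in ConA replicate 3, which covers counting error only. The log2 fold change was -1.99 ± 2.32 (edgeR adjusted p = 0.999), and its 95% interval ran from 0.00672-fold to 9.38-fold. With 1 library left out it ran from -3.25 (without ConA+SIM replicate 1) to -1.41 (without ConA+SIM replicate 2). It was -0.90 in limma-voom and turned to 2.13 with sample quality weights (adjusted p = 0.809). A noncoding gene, 4930483K19Rik, overlaps Lss on the opposite strand. It was not among the counted genes, so its level could not be given.

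Cyp51, the lanosterol demethylase of the cytochrome P450 family (chromosome 5, 4080674 to 4104697), was the most abundant of the 9 by CPM in 6 of 6 libraries. It stood at 151, 186 and 142 CPM in ConA+SIM replicates 1 to 3, against 97.4, 127 and 104 CPM in ConA replicates 1 to 3. Cyp51 was the 1 gene of the branch whose groups did not overlap, with every ConA+SIM library above every ConA library. Groups were apart in this direction in 9.18% of all tested genes, and in either direction in 17.8%. The means were 159.6 ± 23.6 CPM in ConA+SIM and 109.5 ± 15.7 CPM in ConA (SD, n = 3 each), and the log2 fold change, 0.54 ± 0.28, missed the threshold (edgeR adjusted p = 0.673; 95% interval 0.941-fold to 2.25-fold). With each library left out in turn it ran from 0.42 to 0.65. After correction for each library's trend with transcript length it was 0.93 (unadjusted p = 0.0776, adjusted p = 1.00, edgeR), while the median over all genes shifted by 0.14. Cyp51 shares 637 bases at its end with Akap9, a kinase-anchoring protein gene on the opposite strand, which stood at 70.0, 123 and 83.6 CPM in ConA+SIM replicates 1 to 3 and at 36.5, 70.1 and 64.2 CPM in ConA replicates 1 to 3 (log2 fold change 0.70 ± 0.42, edgeR adjusted p = 0.793).

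Summed markers of some other cell types were also higher in every ConA+SIM library than in every ConA library. For 6 erythroid markers the sum was 229 to 343 CPM in ConA+SIM and 43.8 to 115 CPM in ConA, and 5 of 5 tested had log2 fold changes above 0. For 5 neutrophil markers it was 583 to 921 CPM in ConA+SIM and 266 to 441 CPM in ConA, with 3 of 4 tested above 0. For 6 NK cell markers it was 232 to 249 CPM in ConA+SIM and 45.9 to 167 CPM in ConA, with 3 of 4 tested above 0. The defining markers Ly6g, Ncr1 and Klra8 were at 0 counts in all 6 libraries. The part of these cells in the Cyp51 difference was not tested. The 16 hepatocyte markers, of which 8 were tested and 6 of those lay above 0, overlapped between the groups, at 158 to 285 CPM in ConA+SIM and 104 to 205 CPM in ConA, with Cps1 at 0 counts throughout. The 5 B cell markers, 4 of 5 tested above 0, also overlapped, at 314 to 677 CPM in ConA+SIM and 99.1 to 959.5 CPM in ConA. With the hepatocyte level as a covariate the log2 fold change of Cyp51 was 0.46.

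Msmo1, Nsdhl and Hsd17b7 encode the complex that removes the methyl groups at carbon 4 of the sterol ring: a methyl oxidase, a decarboxylating dehydrogenase and a ketone reductase. Their values did not go one way. Msmo1 (chromosome 8, 64718123 to 64733578) had 54.1, 22.2 and 78.9 CPM in ConA+SIM replicates 1 to 3, against 39.9, 68.5 and 99.5 CPM in ConA replicates 1 to 3. The libraries of the groups were interleaved, and the log2 fold change was -0.42 ± 0.56 (edgeR adjusted p = 0.999). It ran from -0.86 (without ConA+SIM replicate 3) to -0.042 (without ConA replicate 3) with 1 library left out.

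Nsdhl, on chromosome X (72918521 to 72958528), had 37.1, 51.1 and 29.7 CPM in ConA+SIM replicates 1 to 3, against 36.6, 11.5 and 13.4 CPM in ConA replicates 1 to 3. The ConA+SIM libraries were all on the high side, together with ConA replicate 1. On the log2 scale the difference of 0.94 ± 0.76 did not pass (edgeR adjusted p = 0.954; 95% interval 0.583-fold to 6.31-fold). Without ConA replicate 1 it was 1.65 (adjusted p = 0.736), and without ConA replicate 2 it was 0.64. Nsdhl and Sqle thus had ConA replicate 1 within the ConA+SIM range and ConA replicates 2 and 3 on the far side, in opposite directions.

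Hsd17b7 (chromosome 1, 169949535 to 169969242) had the lowest mean CPM of the 9 in ConA libraries, 13.1, although Dhcr7 was lower in ConA replicate 1 and Lss in ConA replicate 3. It had 4.75, 25.4 and 15.9 CPM in ConA+SIM replicates 1 to 3, against 16.8, 9.77 and 12.8 CPM in ConA replicates 1 to 3. The ConA+SIM libraries lay on both sides of the ConA libraries, spanning 5.35-fold among themselves. Its log2 fold change was 0.23 ± 1.51 (edgeR adjusted p = 0.999), with a 95% interval of 0.11-fold to 12.5-fold.

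**Figure D1:**
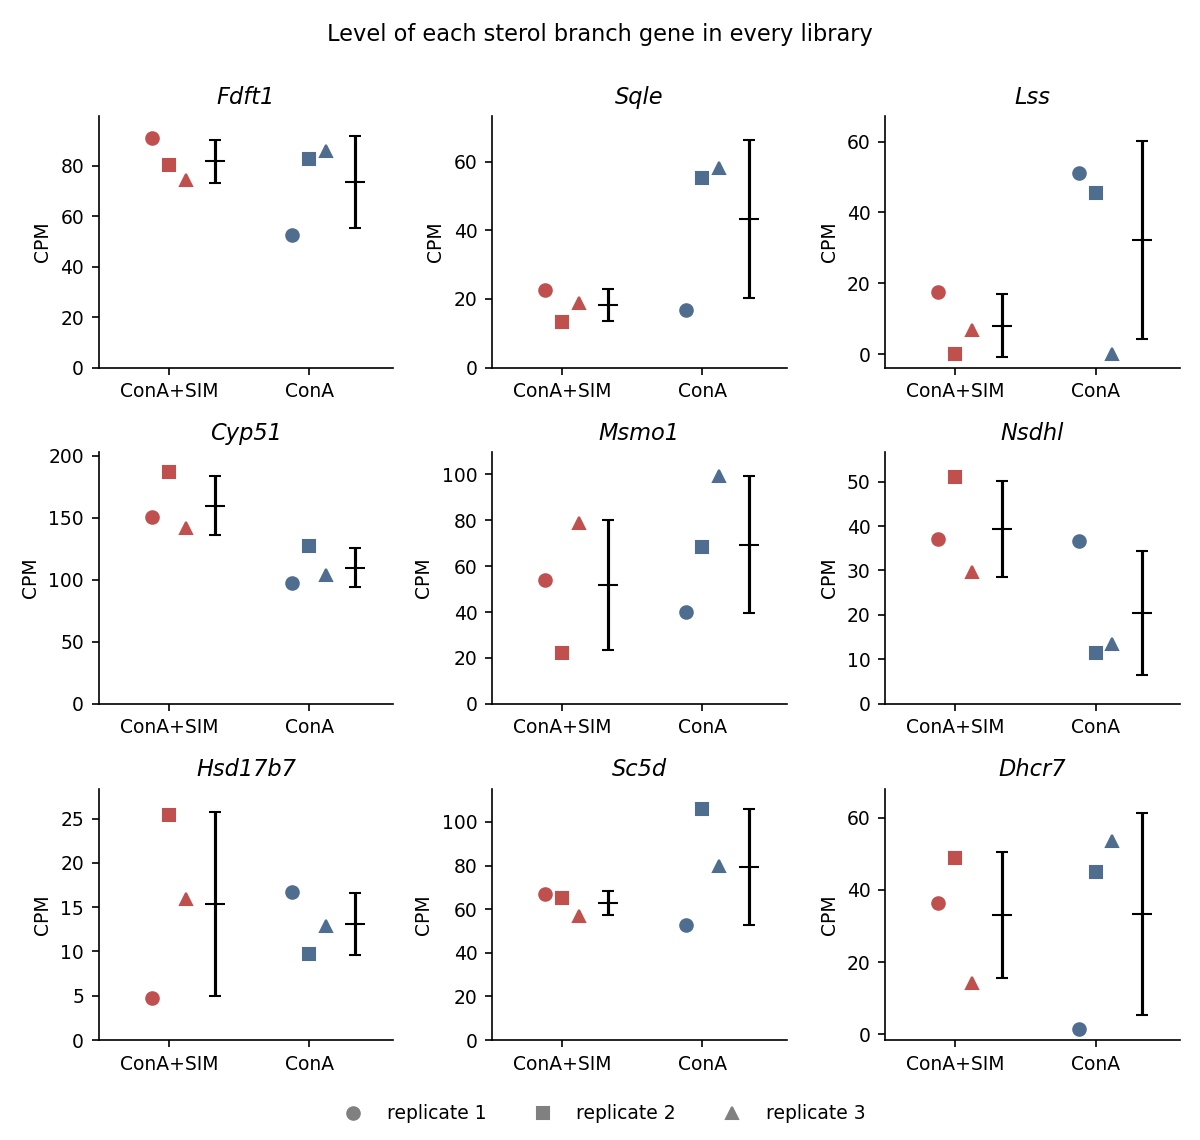
CPM of the 9 sterol branch genes in each library, ConA+SIM left of ConA, with 1 point per library and the mean ± SD of 3 libraries beside the points. Cyp51 is the gene whose groups do not overlap, at 142 to 186 CPM in ConA+SIM and 97.4 to 127 CPM in ConA; Lss has a library at 0 in each group.

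Sc5d, a sterol desaturase gene (chromosome 9, 42251592 to 42264300), acts near the end of the branch. It stood at 66.8, 65.2 and 56.8 CPM in ConA+SIM replicates 1 to 3, against 52.6, 106 and 79.9 CPM in ConA replicates 1 to 3. ConA+SIM libraries were tightly placed, with a 1.18-fold range, and lay inside the ConA range. For Sc5d the log2 fold change was -0.34 ± 0.40 (edgeR adjusted p = 0.999; 95% interval 0.426-fold to 1.48-fold). It was -0.57 without ConA replicate 1 and -0.089 without ConA replicate 2. It was 0.09 with the transcript length correction, under which the median over all genes was 0.10.

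Dhcr7, the reductase that yields cholesterol from its immediate precursor (chromosome 7, 143823167 to 143848410), is the last of the 9 steps. It had 681, 836 and 268 counts in ConA+SIM replicates 1 to 3, against 33, 890 and 1360 counts in ConA replicates 1 to 3. In CPM these were 36.4, 48.8 and 14.3 in ConA+SIM and 1.43, 44.8 and 53.5 in ConA libraries, so that ConA spanned 37.5-fold among its own replicates. The log2 fold change was -0.004 ± 1.08 (edgeR adjusted p = 0.999), with a 95% interval of 0.184-fold to 5.39-fold. Its sign turned in 11 of the 16 alternatives.

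**Figure D2:**
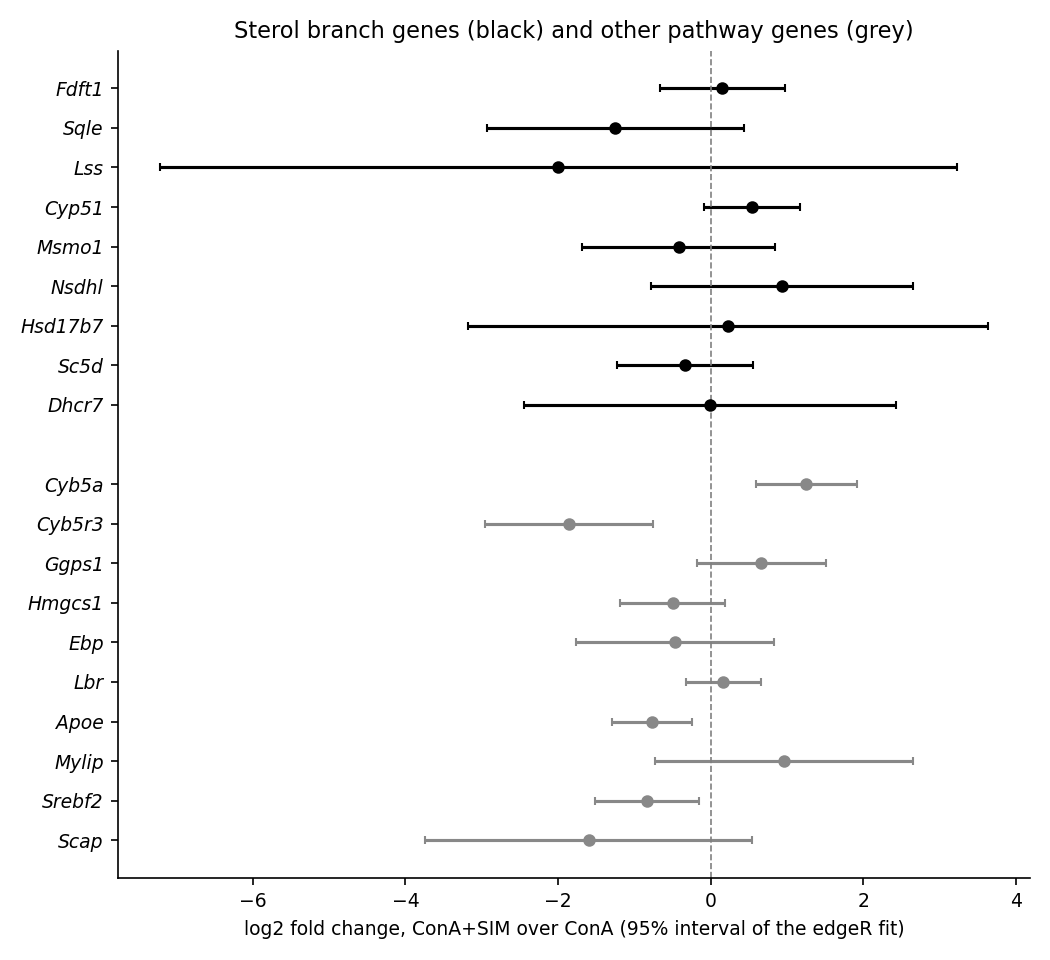
Log2 fold change of ConA+SIM over ConA with the 95% interval of the edgeR fit, for the 9 sterol branch genes (black) and 10 other pathway genes (grey). The intervals of all 9 black points cross 0, from the narrow one of Cyp51 (0.54 ± 0.28, SE) to that of Lss (-1.99 ± 2.32).

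The summed level of the branch overlapped between the groups. The 9 genes added up to 481, 493 and 437 CPM in ConA+SIM replicates 1 to 3, against 365, 551 and 507 CPM in ConA replicates 1 to 3. The means were 470.4 ± 29.3 CPM in ConA+SIM and 474 ± 97.05 CPM in ConA (SD, n = 3 each), and the ConA+SIM sums lay inside the ConA range. Within that sum, Cyp51 made up 31.3%, 37.8% and 32.4% in ConA+SIM replicates 1 to 3, against 26.7%, 23.1% and 20.5% in ConA replicates 1 to 3, with no overlap. The share of Sc5d did not overlap either, in the other direction, at 13.9%, 13.2% and 13.0% in ConA+SIM and 14.4%, 19.2% and 15.8% in ConA libraries. The shares of the other 7 genes overlapped. Shares of a sum depend on each other, and the CPM of Sc5d itself overlapped between the groups. By CPM, groups were apart in either direction in 17.8% of all tested genes. Sqle made up 4.67%, 2.72% and 4.33% in ConA+SIM, against 4.6%, 10% and 11.5% in ConA libraries, where ConA replicate 1 lay inside the ConA+SIM range. The ratio of Cyp51 to Sqle, a pair chosen after the values were seen and not tested, was 6.71, 13.9 and 7.48 in ConA+SIM and 5.80, 2.31 and 1.79 in ConA libraries.

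**Figure D3:**
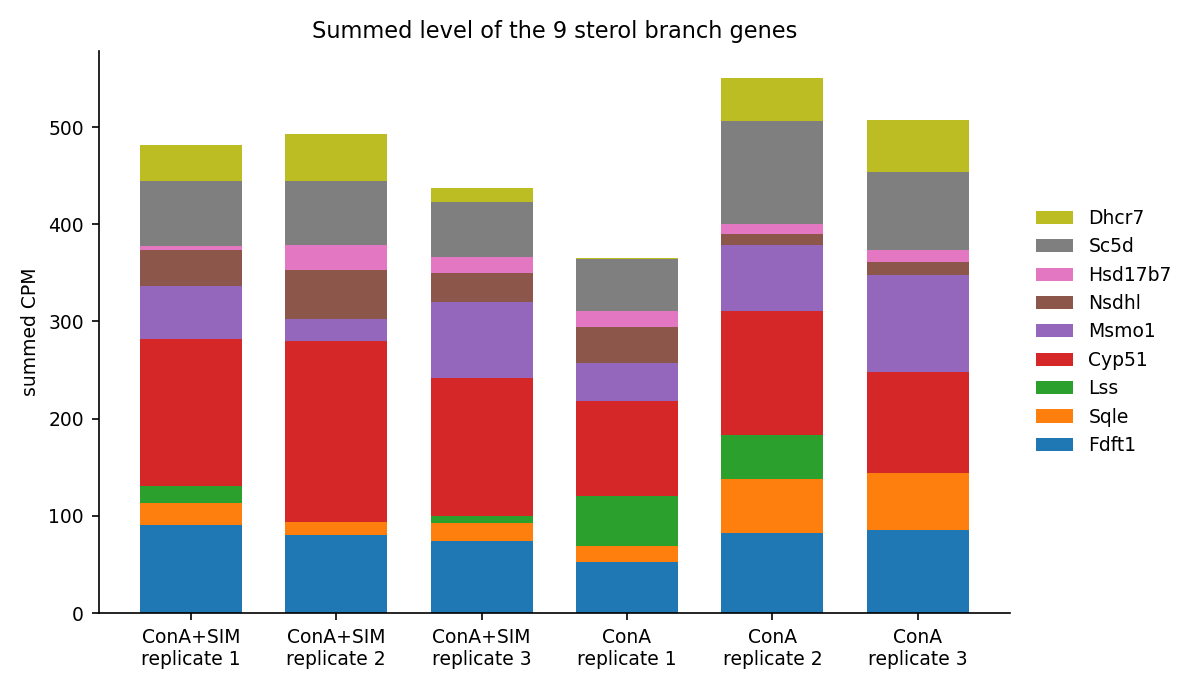
Summed CPM of the 9 sterol branch genes per library, ConA+SIM left of ConA, with a colour for each gene. The sums run from 437 to 493 CPM in ConA+SIM and from 365 to 551 CPM in ConA; the Cyp51 block is the largest in all 6 bars.

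Per kilobase of transcript, the order of the steps could be compared. Each gene's length was that of its longest GENCODE M21 transcript, protein-coding where there was one. Which transcripts these cells hold was not tested, and the order depends on this choice. Transcripts of the branch were 2044 to 4787 nt long, with a median of 3698 nt beside 3121 nt over all tested genes. In ConA+SIM, Cyp51 led at 40.6 ± 6.01 CPM per kb (SD, n = 3), followed by Msmo1 at 25.3 ± 13.9, Fdft1 at 22.1 ± 2.31 and Nsdhl at 18.1 ± 5.01. Sc5d, Dhcr7, Sqle, Hsd17b7 and Lss came next in that order, the last at 1.73 ± 1.89 CPM per kb. In ConA libraries, Msmo1 led at 33.9 ± 14.6 CPM per kb, followed by Cyp51 at 27.9 ± 4.00, Fdft1 at 19.9 ± 4.98, Sc5d, Sqle, Dhcr7, Nsdhl, Lss and, at 2.84 ± 0.76, Hsd17b7. Neighbours in these orders mostly had overlapping libraries, in 8 of 8 neighbouring pairs in ConA+SIM and 7 of 8 in ConA, where Fdft1 lay below Cyp51 in every library. Early and late steps were mixed in both orders.

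The libraries themselves were uneven in which steps they held. ConA replicate 1 had the lowest level of 4 of the 9 genes, and ConA+SIM replicate 2 had the highest of 3 and the lowest of 3, counting the tie of Lss at 0. Within at least 1 group, 7 of the 9 genes varied more than 2-fold, against 79.1% of all tested genes. The standard deviation of log2(CPM + 1) within a group, averaged over the groups, had a median of 0.67 over the 9 genes and 0.74 over all tested genes. A mean profile of the 9 genes over the 6 libraries had its nearest matches in Mrps5 and Mrpl47, of the mitochondrial ribosome, and the SUMO protease gene Senp3 (Pearson r of 0.99, 0.99 and 0.98 over 6 libraries, the highest of 8660 genes). Matches picked as the highest of so many genes over so few libraries do not show a link to the branch, and none was tested. ConA replicate 1 is the low library in these profiles: Mrps5 stood at 50.7, 49.5 and 46.8 CPM in ConA+SIM and at 21.9, 66.0 and 54.3 CPM in ConA libraries.

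Other enzymes of the branch also did not pass. Of 4 listed, 2 were tested, 0 passed, and 1 was above 0 and 1 below. Lbr, the lamin B receptor, which also acts as a sterol reductase, had 370, 406 and 497 CPM in ConA+SIM replicates 1 to 3, against 375, 318 and 439 CPM in ConA replicates 1 to 3. These libraries overlapped, with a log2 fold change of 0.17 ± 0.22 (edgeR adjusted p = 0.999). Ebp, the sterol isomerase gene, had 35.4, 25.8 and 54.0 CPM in ConA+SIM, against 25.7, 72.2 and 61.1 CPM in ConA libraries (log2 fold change -0.46 ± 0.58, edgeR adjusted p = 0.999). Tm7sf2, with 387 counts in all and 243 of them in its highest library, did not pass the filter on counts. Faxdc2 was not among the counted genes.

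Upstream, 8 of 9 listed genes from acetyl-CoA to farnesyl and geranylgeranyl diphosphate were tested; 5 were above 0, 3 below and 0 passed. Hmgcs1, which makes HMG-CoA, had 81.8, 78.5 and 117 CPM in ConA+SIM replicates 1 to 3, against 123, 139.6 and 127 CPM in ConA replicates 1 to 3. Its ConA+SIM libraries were all lower, a separation seen in 8.57% of tested genes, but the log2 fold change of -0.49 ± 0.31 did not pass (edgeR adjusted p = 0.805). Ggps1, geranylgeranyl diphosphate synthase, had 113, 118 and 79.7 CPM in ConA+SIM, against 74.7, 44.9 and 76.6 CPM in ConA libraries (log2 fold change 0.665 ± 0.38, edgeR adjusted p = 0.746). Its ConA+SIM libraries were all higher, a separation seen in 9.18% of tested genes.

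Among 11 tested genes of sterol sensing and uptake, of 12 listed, 4 were above 0, 7 below and 0 passed. Srebf2, which encodes SREBP2, had 179, 98.1 and 142 CPM in ConA+SIM replicates 1 to 3, against 309.7, 209.9 and 226 CPM in ConA replicates 1 to 3. The ConA+SIM libraries were all lower, a separation seen in 8.57% of tested genes. The difference, -0.83 ± 0.30 on the log2 scale, missed the threshold (edgeR adjusted p = 0.419). After transcript length correction it was -0.54, and with GC content as well -0.10. Scap, the SREBP escort gene, had a log2 fold change of -1.60 ± 0.95 (edgeR adjusted p = 0.791), with 42.2, 1.23 and 25.9 CPM in ConA+SIM and 68.8, 71.0 and 70.3 CPM in ConA libraries. For Scap too, every ConA+SIM library lay below every ConA library, a separation seen in 8.57% of tested genes. The log2 fold change of Scap was -1.04 without ConA+SIM replicate 2 and -2.36 without ConA+SIM replicate 1, and -2.54 in limma-voom. All 8 sinusoidal endothelium markers were tested and had log2 fold changes below 0. Their sum, however, was raised in ConA replicate 2 only, at 1865 CPM. ConA replicate 3, at 583 CPM, lay inside the ConA+SIM range of 297 to 593 CPM, and ConA replicate 1, at 236 CPM, lay below it. The sums thus showed no shared difference between the groups. None of the 8 markers was at 0 counts throughout, and their part in the values of Srebf2, Scap and the other genes lower in ConA+SIM was not tested.

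The oxysterol and efflux list had 7 of 10 genes tested, 1 above 0 and 6 below, and 0 passed. Apoe, an apolipoprotein gene, had 129, 145 and 159 CPM in ConA+SIM replicates 1 to 3, against 247, 247 and 243 CPM in ConA replicates 1 to 3. ConA+SIM libraries were all lower, a separation seen in 8.57% of tested genes. The log2 fold change of -0.77 ± 0.23 had an edgeR adjusted p of 0.335 and a DESeq2 adjusted p of 0.0222. DESeq2 called 5.21% of all genes it tested. Macrophages also express Apoe; the 11 macrophage markers summed to 245 to 1214 CPM in ConA+SIM and 949 to 2200.0 CPM in ConA, 8 of 9 tested were below 0, and their part in this difference was not tested. Mylip, whose product marks the LDL receptor for breakdown, had a log2 fold change of 0.96 ± 0.75 (edgeR adjusted p = 0.936), and 0.37 without ConA+SIM replicate 2.

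Msmo1 and Sc5d draw their electrons through cytochrome b5 and its reductase, and Cyp51 and Sqle through the P450 reductase. Of 6 tested genes of electron supply and the scaffold of the demethylating complex, 3 were above 0, 3 below and 0 passed. Cyb5a, microsomal cytochrome b5, had 217, 144 and 248 CPM in ConA+SIM replicates 1 to 3, against 85.1, 85.05 and 85.5 CPM in ConA replicates 1 to 3. Cyb5r3, the reductase that feeds it, had 24.2, 14.5 and 24.6 CPM in ConA+SIM replicates 1 to 3, against 90.1, 63.4 and 75.8 CPM in ConA replicates 1 to 3. The carrier was thus higher in every ConA+SIM library and its reductase lower in every one. Groups were apart with ConA+SIM above in 9.18% of tested genes and with ConA+SIM below in 8.57%. The 6 erythroid markers also summed higher in every ConA+SIM library, at 229 to 343 CPM against 43.8 to 115 CPM in ConA. Their part in the Cyb5a values was not tested. Log2 fold changes were 1.25 ± 0.29 for Cyb5a (edgeR adjusted p = 0.168, DESeq2 adjusted p = 9.9e-04) and -1.86 ± 0.49 for Cyb5r3 (edgeR adjusted p = 0.237, DESeq2 adjusted p = 0.00404). DESeq2 called 5.21% of all genes it tested. Cyb5a has a short transcript of 833 nt, and its log2 fold change was 0.61 after transcript length correction and 0.48 with GC content as well. That of Cyb5r3, with 2547 nt, was -1.85 and -1.57.

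**Figure D4:**
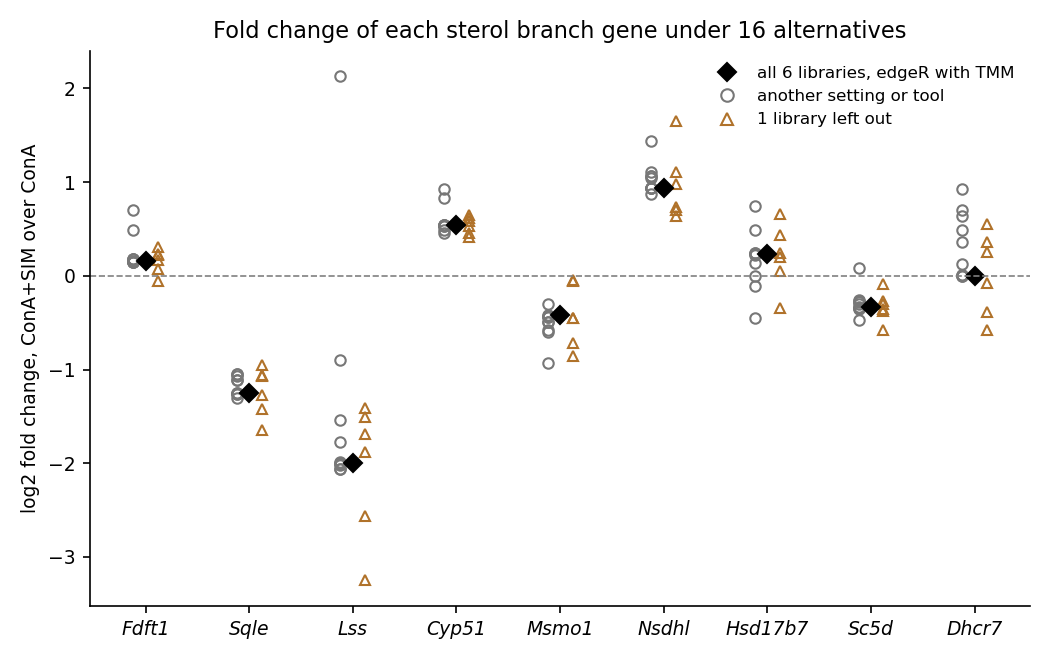
Log2 fold change of ConA+SIM over ConA for each sterol branch gene with all 6 libraries (diamonds), under another setting or tool (circles) and with 1 library left out (triangles). Sqle, Msmo1, Cyp51 and Nsdhl keep their side of 0 throughout, whereas Dhcr7 changes side in 11 of 16 alternatives.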

How the data were processed

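The deposited file is a table of raw read counts for 6 libraries, not normalized, whose columns carry the sample titles; 0 columns were left unused. HISAT2 2.1.0 and GRCm38 are named per the submitters' processing notes; the counting tool, annotation, strand setting and treatment of multiply matching reads were not given in the sources used here. Nothing in the labels says that samples of a group came from separate mice, so the p-values reflect the spread of these samples only, part of which may be technical. No replicate pair agreed within sampling noise (chi-square 138 to 287 times its degrees of freedom).

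From the counts, genes were kept with filterByExpr of edgeR 4.0.16, scaled by TMM and tested with its robust quasi-likelihood test in R 4.3.3, ConA+SIM over ConA, all 6 libraries, no covariate; Benjamini-Hochberg adjustment ran over 10509 genes. SEs are the log2 fold change over the square root of F, and 95% intervals use the degrees of freedom of the fit. The procedure was tested on simulated data, where it recovered the changes put in at a low spread between libraries but few of them at the spread of these libraries. Alternatives were RLE, filters, DESeq2 1.42.0, limma 3.58.1 voom, a replicate block, each library left out, a hepatocyte covariate, length offsets (GENCODE M21, 98.4% of genes) and, added after seeing the data, length and GC offsets. The 9 genes and the pathway lists were chosen with earlier results of these data known. Some genes of these lists are not reported here. Of the genes reported from each pathway list, the text names every gene past the threshold and the 2 with the smallest p. Gene coordinates are from RefSeq on GRCm38.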

Additional observations from a re-analysis of the deposited data

How the results depend on the processing

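Over 16 alternatives, 0 sterol branch genes were called higher or lower. Over all genes, 57 were called higher and 0 lower. RLE scaling gave 59 and 1, no filter 69 and 1, DESeq2 347 and 193, limma-voom 120 and 8, and voom with quality weights 127 and 10. The calls higher came to 0 with the replicate block, with length offsets, with length and GC offsets and with the hepatocyte covariate. Leaving out 1 library gave from 0 to 3 calls higher and 0 lower. The median log2 fold change of the branch, -0.004, was 0.49 with length offsets and 0.49 with length and GC offsets, where the median over all genes shifted by 0.14, and ran from -0.57 (without ConA replicate 1) to 0.24 (without ConA replicate 3) with 1 library left out.

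Dhcr7 changed sign with RLE (0.0071), DESeq2 (0.0062), limma-voom (0.92), quality weights (0.36), the replicate block (0.64), length offsets (0.49), length and GC offsets (0.70) and the hepatocyte covariate (0.12), and without ConA+SIM replicate 3 (0.36), ConA replicate 2 (0.26) or ConA replicate 3 (0.55). Hsd17b7 did so with limma-voom (-0.11), quality weights (-0.45) and the replicate block (-0.0054), and without ConA+SIM replicate 2 (-0.34). Lss turned to 2.13 with quality weights, Fdft1 to -0.054 without ConA replicate 1 and Sc5d to 0.0851 with length offsets. With 1 library left out, Fdft1 ran from -0.054 to 0.3029, Hsd17b7 from -0.34 to 0.66 and Dhcr7 from -0.58 to 0.55. The causes were not tested. Samples with the same replicate number did not deviate together (correlations of 0.02, 0.01 and -0.01), so the block rests on a shared number only. Lss, with a library at 0 in each group, and Dhcr7, with 33 counts in ConA replicate 1, had wide intervals at total counts of 17549429 or more.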
